A study of Mus musculus with 36 samples.

Results

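The genes described here are 7 components of the Hedgehog pathway, Gli1, Gli2, Gli3, Ptch1, Smo, Hhip and Sufu, out of 30205 genes summed from the transcript tables. They were chosen by symbol, because Gli1 and Smo are reported targets of miR-324 in human cells and the other 5 act in the same pathway. Beside them stand 3 further genes reported elsewhere as miR-324 targets: Gpc1, Runx2 and Kcnd2. Runx2 may have been picked on libraries such as these, so its direction here is not independent evidence.

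RNA was sequenced from primary cells of wild-type (WT) mice and of mice null for Mir324 (null), all 20 weeks of age, with 6 libraries in each of 6 groups. Marrow was first cultured for 3 days in M-CSF at 100 ng/mL. Bone marrow macrophages (BMM) then received M-CSF at 30 ng/mL for 5 days, and the cultures labelled osteoclasts (OC) received M-CSF at 30 ng/mL with RANK-L at 50 ng/mL for the same time. Osteoblasts (OB) grew from bone chips for about 6 weeks and then spent 18 days in medium with 2 mM β-glycerophosphate and 50 µg/mL ascorbate. The null allele is described no further in the labels, and no label says which libraries of a group share a mouse, so p-values measure the spread between libraries, which may be technical. Mir324 itself was not analysed here, and the genotype labels were therefore not checked against the targeted gene.

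In Hedgehog signalling, a secreted ligand (Shh, Ihh or Dhh) binds the receptor Patched, which otherwise silences the membrane protein Smoothened. Freed Smoothened enters the primary cilium and releases the Gli transcription factors from Sufu. Gli2 acts mainly as an activator and Gli3 mainly as a repressor, while Gli1, Ptch1 and Hhip are themselves switched on by the pathway. In the skeleton, Ihh from cartilage directs the formation of osteoblasts in growing bone.

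Mir324 gives 2 mature miRNAs, whose sequences (RefSeq, GRCm38.p6, chromosome 11, plus strand, 70012060 to 70012082 and 70012095 to 70012114) are shown because the seed, bases 2 to 8 in capitals, defines which 3′ UTR sites they can pair with.
mmu-miR-324-5p: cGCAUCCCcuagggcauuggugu
mmu-miR-324-3p: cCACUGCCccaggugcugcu

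The complement of the 5p seed is GGGATGC and that of the 3p seed is GGCAGTG. Both were searched on the transcribed strand of each gene's longest annotated 3′ UTR (GENCODE M21, GRCm38). Of 21020 genes with such a UTR, 7.388% held the 5p site and 12.669% held the 3p site. None of the 7 Hedgehog members held a 5p site. That includes Gli1, whose 3′ UTR is 165 bases long, and Smo, whose 3′ UTR is 1080 bases long. Smo and Sufu each held 1 site for the 3p miRNA, and Gli1, Gli2, Gli3, Ptch1 and Hhip held neither site. Among the other reported targets, Gpc1 held 3 sites for 5p and 1 for 3p, and Runx2 and Kcnd2 held 1 site each for 5p. A match describes the letters in the window and is not a binding site shown by experiment. The sites of genes that had counts are printed with the matching bases in capitals, for comparison with the direction of each gene below; that of Kcnd2, which had none, is not printed.
Smo, 3p site, chromosome 6, 29760537 to 29760543, plus strand, exon 12 of 12: gtctgactGGCAGTGttagtctc
Sufu, 3p site, chromosome 19, 46488281 to 46488287, plus strand, exon 12 of 12: ccgagggtGGCAGTGccggctgc
Gpc1, 5p site, chromosome 1, 92859027 to 92859033, plus strand, exon 9 of 9: gcctgcaaGGGATGCcagtatgt
Gpc1, 5p site, chromosome 1, 92859406 to 92859412, plus strand, exon 9 of 9: tggccatgGGGATGCtgggtggc
Gpc1, 5p site, chromosome 1, 92859727 to 92859733, plus strand, exon 9 of 9: gggcctagGGGATGCtgagttgc
Gpc1, 3p site, chromosome 1, 92859754 to 92859760, plus strand, exon 9 of 9: tccaggaaGGCAGTGgtcctgac
Runx2, 5p site, chromosome 17, 44605382 to 44605388, minus strand, exon 7 of 7: gaatagagGGGATGCattagtgc

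Libraries held 14118972 to 26347581 estimated counts. Levels are given in TPM, which allows genes of different length to be compared, and 1 gene is compared between libraries in CPM after TMM scaling. A summed count of at most 3 in a library was taken as the floor, and floors cover counting error only. Marker lists were summed in TPM to check the labels. The 12 osteoblast markers ran from 26019 to 37246 TPM in WT OB and at most 10.3 in WT BMM. OB cultures also held macrophage markers (9 genes, 6944 to 8069 TPM in WT OB) and osteoclast markers (8 genes, 4090 to 5144 TPM), so they were mixed cultures. The libraries labelled null OC carried 233 to 569 TPM of osteoclast markers against 30996 to 35343 in WT OC, with Calcr, the calcitonin receptor, at 0. They went against their label in this respect, and results on OC compare RANK-L cultures that differed in osteoclast markers. In bulk RNA, fewer cells of a type and less RNA per cell cannot be told apart.

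The members fell into 3 patterns of level. Smo, Gli3 and Gli2 were found almost only in OB cultures, Ptch1 and Sufu were present in all 6 groups, and Gli1 was sparse, with at most 22 counts in any library. Hhip had no counts and is left out of the plot of member TPM by library.

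**Figure D1:**
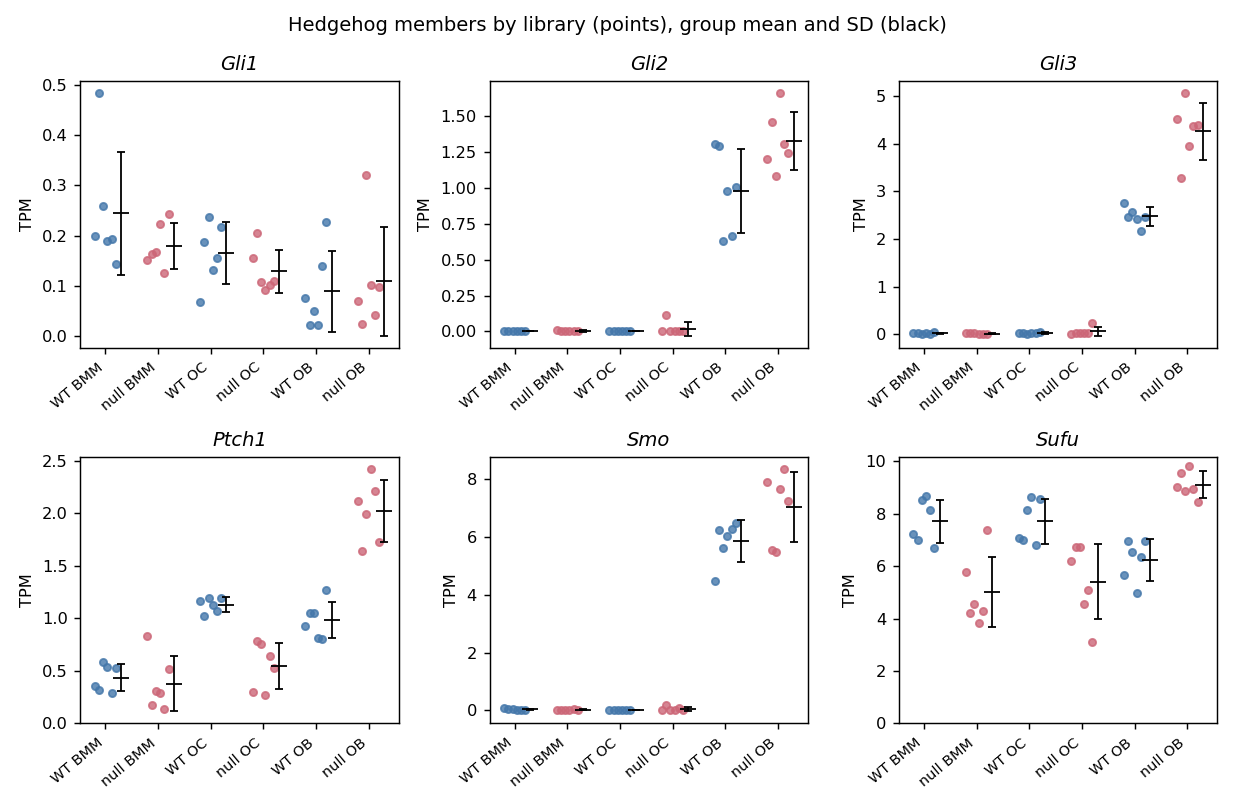
TPM of 6 Hedgehog members in each of the 36 libraries (points), by group, with the group mean and SD in black; each panel has its own linear axis. Gli2, Gli3 and Smo stand above 0.6 TPM only in the WT OB and null OB groups, whereas Sufu lies between 3.09 and 9.84 TPM in every library.

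Smo, the membrane protein that passes the signal inward (chromosome 6, 29735503 to 29761365), was among the 3 genes the most abundant in WT OB, with a lowest, median and highest level of 4.49, 6.12 and 6.48 TPM. In WT OC the highest library held 1.00 counts, and in WT BMM the highest held 3.01 counts. Against a floor of 3 counts per library, mean CPM of Smo in WT OB was at least 96.2-fold higher than in WT OC. Gli3 (chromosome 13, 15463235 to 15730026) reached 2.16, 2.47 and 2.76 TPM in WT OB. It did not exceed 5 counts in any WT BMM or WT OC library. Gli2 (chromosome 1, 118834132 to 119053619) was at 0.633, 0.993 and 1.31 TPM in WT OB. Gli2 had 0 counts in all WT BMM and all WT OC libraries, so that WT OB was at least 23.9-fold and at least 25.1-fold higher. These 3 genes entered the tests between cell types through the OB libraries alone, so their difference there was fixed by the filter and is given as a description.

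Sufu, the cytoplasmic brake on Gli proteins (chromosome 19, 46396896 to 46488804), was the most evenly spread member. Its mean level was 7.71 ± 0.832 TPM in WT BMM (SD, n = 6), 7.70 ± 0.843 in WT OC and 6.24 ± 0.787 in WT OB. In WT cells Sufu was lower in OB than in BMM (log2 fold change of counts -0.38, SE 0.14, edgeR quasi-likelihood test, Benjamini-Hochberg adjusted p 0.0116) and lower in OC than in BMM (-0.38, SE 0.14, adjusted p 0.0161). Of all 14268 genes tested, 76.8% and 56.2% passed the threshold of 0.05 in those contrasts. When length and GC content were corrected for (described with the OB comparison), Sufu passed in neither, at -0.18 and -0.22.

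Ptch1, the ligand receptor and itself a pathway target (chromosome 13, 63508328 to 63573598), was present in all 3 cell types. WT BMM libraries held 0.291, 0.444 and 0.587 TPM (lowest, median, highest), WT OC libraries 1.02, 1.15 and 1.20, and WT OB libraries 0.799, 0.989 and 1.27. The WT OC range lay wholly above the WT BMM range. The rise in CPM from BMM to OC was 1.28 on the log2 scale (SE 0.27, adjusted p 9.45e-05, edgeR). OB exceeded BMM by 1.13 (SE 0.27, adjusted p 0.000301). Between OB and OC the difference was -0.15 (SE 0.26, adjusted p 0.597), and 77.9% of genes passed in that contrast. Most Ptch1 counts were assigned to a single transcript of 7002 bases, which took 87.1% of them in WT OB and 82.5% in WT OC.

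Gli1, the gene most often read as the output of the pathway (chromosome 10, 127329882 to 127341974), averaged 4.17 counts per library in WT OB and 11.3 in WT BMM. Its level was 0.0219, 0.0621 and 0.228 TPM in WT OB and 0.144, 0.196 and 0.483 TPM in WT BMM (lowest, median, highest). WT OB and WT BMM ranges overlapped, and the log2 difference of OB from BMM was -1.44 (SE 0.46, adjusted p 0.00476, edgeR). Of all 14268 genes tested, 76.8% passed in that contrast. WT OB libraries held only 1 to 11 counts of Gli1, near the floor, so the difference is given as a description. The order of the 6 group means ran from WT BMM at 0.244 TPM to WT OB at 0.0891 TPM, and every neighbour in that order overlapped the next. Exons of Gli1 share 265 bases with Gm47200 and 62 bases with Arhgap9, both read from the other strand. Arhgap9 averaged 120 ± 8.19 TPM in WT BMM and 34.2 ± 2.03 in WT OB (SD, n = 6). Whether reads were assigned by strand is not given in the sources used here, so reads of the genes cannot be told apart over those bases. The part of Arhgap9 and of Gm47200 in the Gli1 values was not tested. Gli3 likewise shares 188 exon bases with Gm6556, and Hhip 175 with Gm27820, each on the other strand. Gli1 passed the filter on low counts in none of the 3 genotype comparisons. Between null and WT its ranges overlapped in each cell type, with means of 0.488 and 0.602 CPM in BMM, 0.333 and 0.377 in OC, and 0.231 and 0.213 in OB.

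Hhip, a membrane decoy that binds Hedgehog ligands (chromosome 8, 79965851 to 80058006), had 0 counts in all 36 libraries. Kcnd2, a potassium channel subunit reported as a miR-324 target in brain, also had 0 counts in all 36. At these depths, 3 counts correspond to at most 0.225 CPM in any group, so levels below that were not detectable, and no comparison was possible for either gene.

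The genotype comparison in OB tested 5 of the 7 members, all but Gli1 and Hhip. Ptch1, Gli3, Sufu and Gli2 were higher in null OB, and Smo did not pass the threshold. Of all 13607 genes tested in OB, 32.5% passed, 15.5% as higher and 16.9% as lower in null, and for 15.8% the CPM ranges of the groups did not overlap. The median log2 fold change was 0.44 over the 5 members tested and 0.00 over all genes (0.0018 before rounding).

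Ptch1 had the largest change among the members in OB. WT OB libraries held 3.80, 4.40 and 5.99 CPM and null OB libraries 6.92, 8.41 and 10.3 CPM (lowest, median, highest). All 6 null libraries lay above all 6 WT libraries. The log2 fold change of Ptch1 came to 0.87 (SE 0.14, adjusted p 0.000323, edgeR), and it stayed past the threshold in each of 12 fits that left out 1 library.

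Gli3, the factor that acts mainly as a repressor, had 11.6, 12.7 and 13.7 CPM in WT OB and 16.5, 19.1 and 21.6 CPM in null OB. These groups did not overlap. The log2 fold change of Gli3 was 0.57 (SE 0.08, adjusted p 0.000156, edgeR). Gli2, the main activator, had 2.81, 3.83 and 4.93 CPM in WT OB and 4.29, 4.98 and 6.52 CPM in null OB. Here the ranges overlapped, with 3 null libraries above all WT libraries. Its log2 fold change of 0.44 (SE 0.16) had an adjusted p of 0.0498 by the edgeR test, just inside the threshold, and the call was kept in 4 of the 12 fits without 1 library (adjusted p 0.0274 to 0.108). With an offset for average transcript length alone it was 0.28 (adjusted p 0.310). The libraries whose removal ended the call were WT OB replicates 1, 3, 4 and 5 and null OB replicates 2, 4, 5 and 6.

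Sufu had 14.2, 15.6 and 17.9 CPM in WT OB and 17.3, 20.0 and 23.0 CPM in null OB. All but 1 of the null libraries exceeded every WT library. Sufu changed by 0.33 on the log2 scale (SE 0.08, adjusted p 0.00496, edgeR), kept in all 12 fits without 1 library. Smo had 11.1, 15.3 and 15.9 CPM in WT OB and 12.04, 16.1 and 18.5 CPM in null OB. The groups overlapped broadly, and the difference was 0.08 (SE 0.12, adjusted p 0.650). The 95% interval of that difference ran from -0.18 to 0.34.

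The changes in OB moved with transcript length. When the tested genes were divided into 5 length classes of equal size, the median log2 fold change was -0.26 in the shortest class, then -0.09, 0.01 and 0.10, and 0.28 in the longest (4442 bases and more). In the longest class 44.3% of genes were called higher, against 2.24% in the shortest. Across genes, Spearman's rho between log2 fold change and length was 0.58 in OB, -0.20 in BMM and 0.00 in OC (0.001 before rounding), as a description over genes, which are not independent replicates. Gli2, Gli3 and Ptch1 belong to the longest class, with count-weighted lengths of 6592, 8067 and 7052 bases, and so does Runx2 at 5868. Smo (3779 bases), Sufu (4304) and Gpc1 (4175) belong to the next class down.

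**Figure D2:**
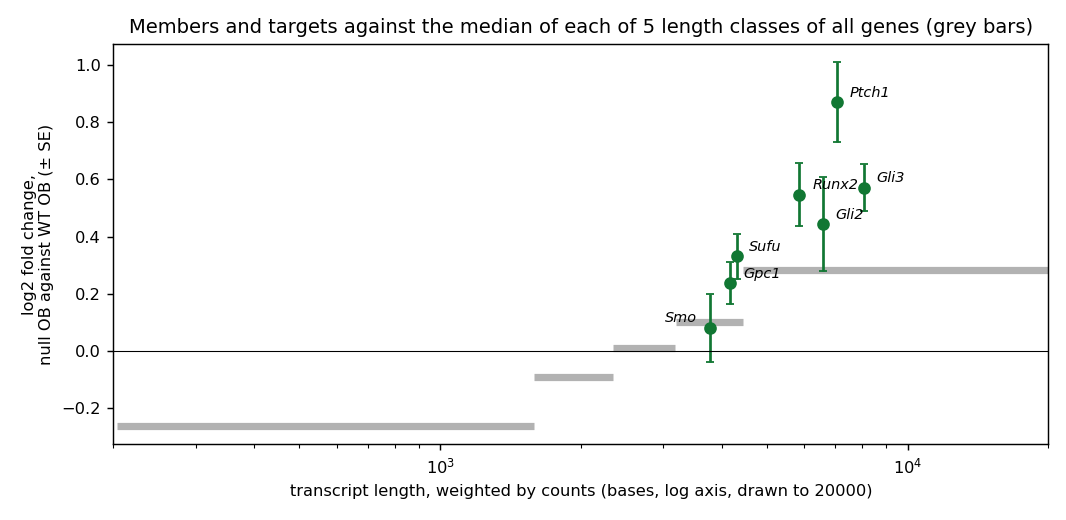
Log2 fold change of null against WT in OB (± SE) for the members and reported targets tested, against count-weighted transcript length on a log axis; grey bars give the median of each of 5 length classes of all tested genes. Ptch1 at 0.87 stands farthest above the bar of its class at 0.28.

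As the check on transcript length, the test was repeated with a lowess curve on length and on GC content taken out of every library, called the length and GC offset here. With it 14.9% of genes passed in OB, 6.75% as higher and 8.12% as lower. Among the members only Ptch1 remained past the threshold, at 0.55 (adjusted p 0.0093, edgeR). Gli3 fell short at 0.20 (adjusted p 0.0865), Sufu at 0.17 (adjusted p 0.156) and Gli2 at 0.12 (adjusted p 0.658). Smo changed sign to -0.05 (adjusted p 0.807). Gli2, Gli3 and Sufu also missed the threshold when OB was fitted together with the other cell types, with values of 0.45, 0.58 and 0.34 and adjusted p of 0.136, 0.0700 and 0.0603.

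**Figure D3:**
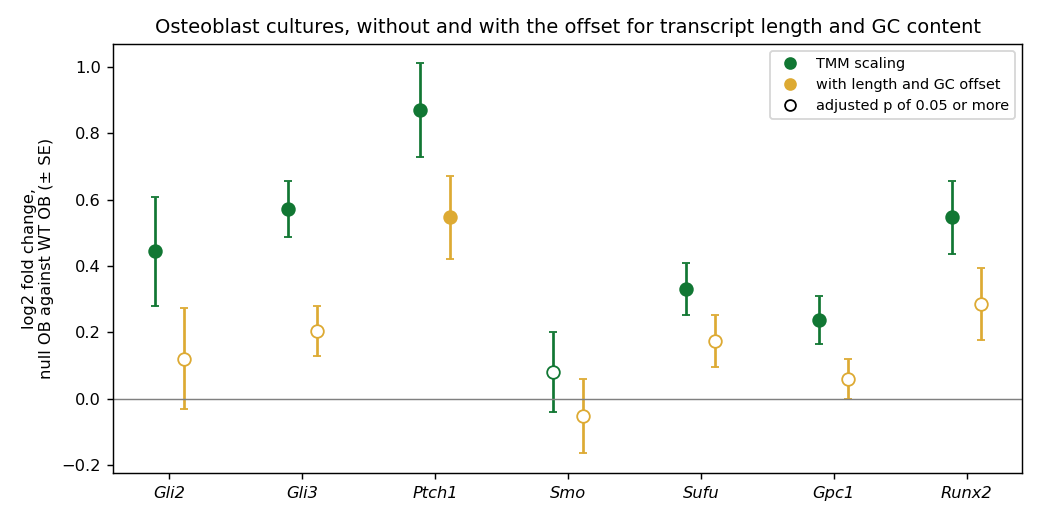
Log2 fold change of null OB against WT OB (± SE) for 5 Hedgehog members and 2 reported targets, with TMM scaling (green) and with the length and GC offset (yellow); open symbols have an adjusted p of 0.05 or more. Of the members only Ptch1 keeps a filled symbol with the offset, at 0.55.

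Marker lists moved in the same comparison, in which 15.5% of all genes were higher and 16.9% lower in null. Of 7 chondrocyte markers 5 were higher in null OB, with a summed level of 173 to 402 TPM in WT and 483 to 1134 in null. Col2a1, the cartilage collagen, was higher by 2.37 (SE 0.31, adjusted p 0.000213, edgeR), and Sox9, a cartilage transcription factor, by 0.80 (SE 0.16, adjusted p 0.00239). Of 12 osteoblast markers, a list that includes Runx2, 7 were higher (26019 to 37246 TPM in WT, 43536 to 56911 in null). Of 9 macrophage markers 8 were lower (6944 to 8069 TPM in WT, 4585 to 5456 in null). None of these ranges overlapped between genotypes, nor did the osteoclast sums (4090 to 5144 TPM in WT, 5339 to 8072 in null). No gene of the chondrocyte, osteoblast and macrophage lists was at 0 in either OB group. Of the other lists, 3 of 8 osteoclast and 3 of 6 mural markers were higher, and 2 of 6 tendon and periosteum markers were lower. Of 8 adipocyte markers 3 were tested, with 1 higher and 2 lower, no endothelial or neutrophil marker passed, and no lymphoid marker was tested. With the length and GC offset 5 chondrocyte, 5 osteoblast, 3 osteoclast and 3 mural markers were higher, against 6.75% of all genes. With it 7 macrophage, 1 tendon and periosteum and 1 endothelial marker were lower, against 8.12%, and 1 adipocyte marker went each way. The part of these marker lists in the Ptch1, Gli3, Sufu and Gli2 results was not tested.

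In OC, 2 of the 7 members passed the filter on low counts, Ptch1 and Sufu, against a background in which 65.6% of 12121 genes passed the test, 32.4% as higher and 33.1% as lower in null. Ptch1 was lower in null OC, the opposite direction to OB. Its CPM was 4.73, 5.05 and 5.42 in WT OC and 1.40, 2.99 and 4.29 in null OC (lowest, median, highest). All 6 null libraries lay below all 6 WT libraries, as the CPM ranges of 45.3% of genes did not overlap in OC. Ptch1 changed by -0.85 on the log2 scale (SE 0.25, adjusted p 0.00619, edgeR), and it was -0.71 with the length and GC offset, still past the threshold. The null OC level of Ptch1 overlapped that of WT BMM in TPM (0.270 to 0.785 against 0.291 to 0.587). In the same libraries all 8 osteoclast markers were lower in null, and of 9 macrophage markers 7 were higher and 1 lower. Osteoblast markers summed to 4.01 to 6.21 TPM in WT and 22.2 to 103 in null, with 3 of 5 tested higher. Adipocyte sums were 504 to 626 and 149 to 196 TPM, with 1 of 3 tested higher and 2 lower, and with Plin1, Cidec, Cfd and Lep at 0 in both groups. Mural sums were 4.22 to 5.06 and 9.92 to 24.2 TPM, with 1 of 2 tested higher and 1 lower. Tendon and periosteum sums (2.08 to 3.40 and 4.42 to 6.76 TPM) and lymphoid sums did not overlap either. Neutrophil markers summed to at most 2.06 TPM in WT OC and to 40.2 to 54.2 TPM in null OC. Of that list 1 gene was tested, S100a8, which was higher in null, and Elane and Ltf were at 0 in both groups. The part of these marker lists in the Ptch1 result was not tested.

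Sufu in OC had 13.6, 15.9 and 18.5 CPM in WT and 10.3, 15.3 and 20.3 CPM in null. The null libraries spanned the whole WT range, and the difference was -0.03 (SE 0.14, 95% interval -0.33 to 0.27, adjusted p 0.862, edgeR). On log2(TPM + 0.1) with limma it was -0.55 (adjusted p 0.0119), on a scale where the median of all genes moved by -0.25 in OC.

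In BMM, Ptch1 and Sufu were again the members tested, and 52.3% of 11925 genes passed, 27.0% as higher and 25.4% as lower in null, and 30.9% had CPM ranges that did not overlap. Sufu was lower in null BMM. WT BMM libraries held 18.6, 19.9 and 23.5 CPM and null BMM libraries 8.38, 13.1 and 20.1 CPM, so that 5 of the 6 null libraries lay below all WT libraries. Sufu changed by -0.59 on the log2 scale (SE 0.16, adjusted p 0.00483, edgeR), kept in all 12 fits without 1 library and with the length and GC offset (-0.46). Ptch1 had 1.38, 2.04 and 2.93 CPM in WT BMM and 0.707, 1.61 and 3.88 CPM in null BMM. The null range enclosed the WT range, and the difference was -0.13 (SE 0.36, 95% interval -0.89 to 0.63, adjusted p 0.773).

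In BMM the summed marker levels of WT and null libraries did not overlap for any list but the chondrocyte and endothelial ones. Of 9 macrophage markers 6 were lower and 2 higher in null, with sums of 18896 to 21296 TPM in WT and 14097 to 17581 in null. Osteoclast markers summed to 63.3 to 82.2 TPM in WT and 159 to 203 in null, with 2 of 5 tested higher and 2 lower and Calcr at 0 in both groups. Adipocyte markers summed to 282 to 603 TPM in WT and 94.2 to 186 in null, with 1 of 3 tested higher (Fabp4) and 2 lower (Lpl and Pparg). Plin1, Cidec, Cfd and Lep were at 0 in both groups, and Adipoq was at 0 in null. The sums of several lists at low levels were higher in null, though not every gene in them was. Osteoblast markers summed to 4.01 to 10.3 TPM in WT, with Alpl, Sp7 and Bglap2 at 0, and to 20.4 to 50.0 in null, with none at 0; 4 of 5 tested were higher and 1 lower. Mural markers summed to 2.46 to 4.14 TPM in WT and 13.4 to 18.4 in null. Of these 2 were tested, with Acta2 higher by 3.48 and Cspg4 lower by -4.61 on the log2 scale. Tendon and periosteum markers summed to 1.58 to 3.60 TPM in WT and 4.09 to 5.92 in null, with 1 of 2 tested higher and 0 lower. Neutrophil markers summed to 0.741 to 2.11 TPM in WT and 43.1 to 104.9 in null, and lymphoid markers to 0.122 to 0.509 and 1.94 to 4.30. Only 1 gene of each of these lists was tested, S100a8 and Cd79b, and each was higher in null. S100a9 and Elane were at 0 in both groups, and Ltf was at 0 in null. The part of these marker lists in the Sufu result, and in the Gpc1 and Runx2 results in BMM given below, was not tested.

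**Figure D4:**
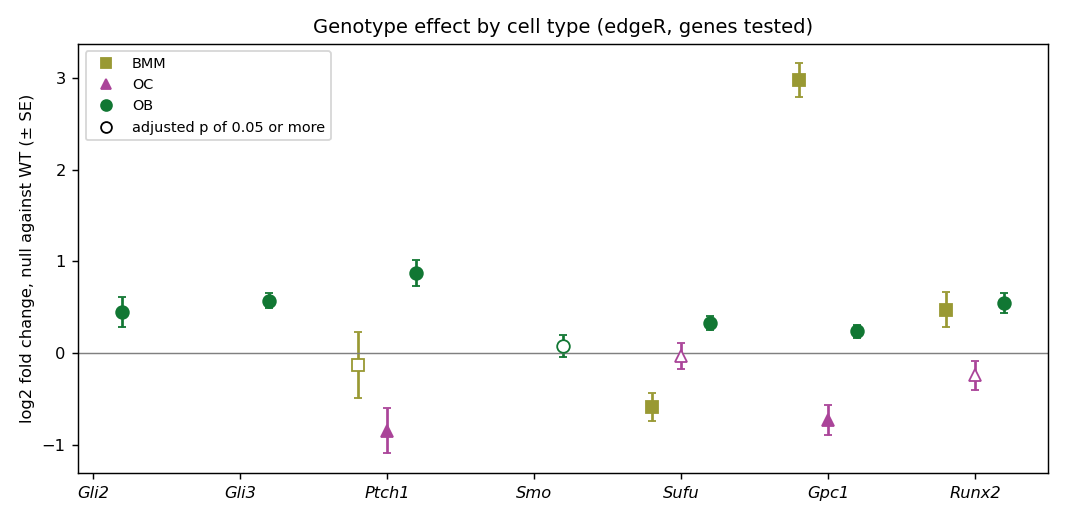
Log2 fold change of null against WT (± SE) in BMM (squares), OC (triangles) and OB (circles) for the members and reported targets that passed the filter; open symbols have an adjusted p of 0.05 or more. Gli2, Gli3 and Smo were tested in OB only, and Ptch1 lies at -0.85 in OC and at 0.87 in OB.

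Whether the genotype effect differed between cell types was tested as an interaction in a fit of all 36 libraries. The Ptch1 effect in OB exceeded that in OC by 1.73 (SE 0.37, adjusted p 0.000128, edgeR) and that in BMM by 1.02 (SE 0.38, adjusted p 0.0279). With the length and GC offset the second difference was 0.54 and no longer passed. The Ptch1 effects in OC and BMM differed by -0.72 (SE 0.39, adjusted p 0.134). Of 14268 genes, 55.2% passed for OB minus OC, 45.9% for OB minus BMM and 47.5% for OC minus BMM. The Sufu effect in OB exceeded that in BMM by 0.93 (SE 0.19, adjusted p 0.00013). The Sufu effect in OC exceeded that in BMM by 0.56 (SE 0.19, adjusted p 0.0158), a difference of 0.30 and not past the threshold with the offset.

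Smo, Gli3 and Gli2 had few counts in BMM and OC, and the highest values stood in single libraries. Smo had 9.1 counts in null OC replicate 2 and 3.0 in replicate 5, and 0 in the other 4 null OC libraries. Interactions of Smo passed the threshold for OB minus OC (-2.88, adjusted p 0.0235) and for OC minus BMM (3.81, adjusted p 0.0272). Without null OC replicate 2 they were -1.36 (adjusted p 0.315) and 2.30 (adjusted p 0.187). Gli3 had 20.0 counts in null OC replicate 6 and at most 5.0 in the others. Gli2 had 1.0 count in null BMM replicate 1 and 1.0 in null OC replicate 2.

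Of the reported targets outside the core pathway, Gpc1 was higher in null BMM and null OB and lower in null OC, and Runx2 was higher in null OB and null BMM. Gpc1, a heparan sulphate proteoglycan of the cell surface with 3 sites for the 5p miRNA, had 0.846, 0.954 and 1.22 CPM in WT BMM and 6.43, 7.50 and 10.9 CPM in null BMM. No library overlapped, and null exceeded WT by 2.97 on the log2 scale (SE 0.18, adjusted p 1.54e-09, edgeR). In OC it went the other way, from 12.3, 13.2 and 14.1 CPM in WT to 5.64, 7.42 and 12.9 CPM in null (-0.73, SE 0.17, adjusted p 0.00101). All but 1 null OC library lay below all WT OC libraries. The part of the osteoclast and other markers that differed in OC was not tested here either. In OB, where Gpc1 was most abundant at 29.2 ± 3.13 TPM in WT (SD, n = 6), the values were 69.2, 81.9 and 90.5 CPM in WT and 82.9, 96.3 and 101 CPM in null. That difference of 0.24 (SE 0.07, adjusted p 0.0219) was 0.06 and not past the threshold with the length and GC offset, and without WT OB replicate 3 its adjusted p was 0.0502. Exons of Gpc1 share 977 bases with Ankmy1 on the other strand, so its values are uncertain to that extent.

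Gpc1 effects differed between all pairs of cell types, by -2.72 for OB minus BMM, 0.99 for OB minus OC and -3.70 for OC minus BMM (adjusted p 3.77e-13, 1.06e-05 and 6.97e-17, edgeR). In WT cells Gpc1 was higher in OC than in BMM by 3.70 (SE 0.17, adjusted p 8.35e-21). The null OC and null BMM levels overlapped, at 2.68 ± 0.848 and 2.55 ± 0.589 TPM (SD, n = 6).

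**Figure D5:**
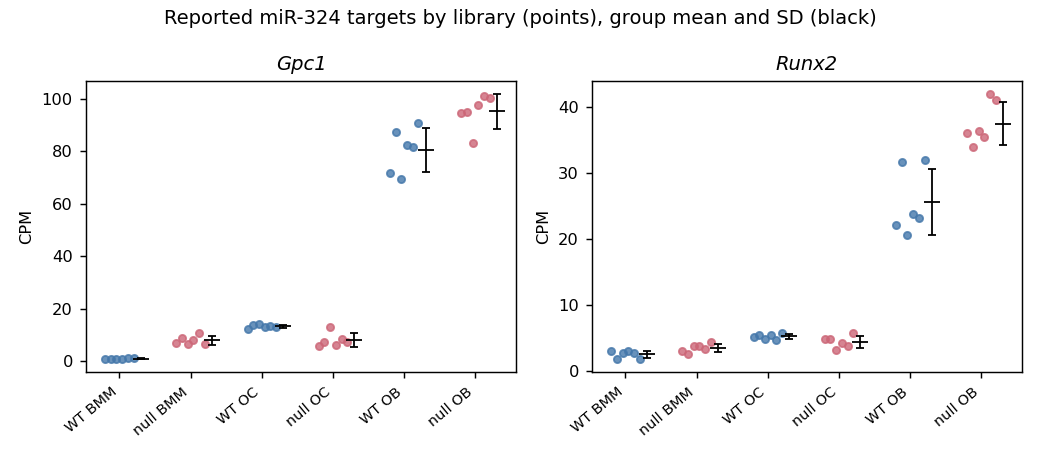
CPM of Gpc1 and Runx2 in each of the 36 libraries (points), by group, with the group mean and SD in black; each panel has its own linear axis. Runx2 is lowest in BMM and highest in null OB, where it reached 41.9 CPM.

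Runx2, the transcription factor required for osteoblast formation, carries a 5p site followed by an A. It had 20.6, 23.5 and 32.0 CPM in WT OB and 33.9, 36.2 and 41.9 CPM in null OB, with no overlap. The change of 0.55 (SE 0.11) was 0.29 (adjusted p 0.0947, edgeR) with the length and GC offset. In BMM its change of 0.47 (SE 0.19, adjusted p 0.0492) was kept in 3 of 12 fits without 1 library, those without WT replicates 1 or 4 or null replicate 2, and was lost with RLE scaling (adjusted p 0.0511). In OC it was -0.24 (SE 0.16, adjusted p 0.187). The assignment of Runx2 counts to transcripts also differed in OC, where a transcript of 5898 bases took 50.1% of counts in WT and 18.3% in null, from means of 51.8 and 14.7 counts; these are the quantifier's estimates and were not tested. Exons of Runx2 share 519 bases with Runx2os1 on the other strand.

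The wider pathway was described with 56 further genes in 4 lists, 63 with the members. In OB 52 were tested, of which 15 were higher and 3 lower in null, with a median of 0.11 against 0.00 over all genes. Over all genes 15.5% were higher and 16.9% lower. With the length and GC offset 5 were higher and 5 lower, against 6.75% and 8.12% of all genes. In BMM 31 were tested, with 9 higher and 8 lower, shares near the 27.0% and 25.4% of all genes. In OC 29 were tested, with 14 higher and 5 lower, against 32.4% and 33.1% of all genes.

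Of 9 ligand and ligand-release genes, 7 exceeded 3 counts in a WT BMM library, 6 in WT OC and 8 in WT OB. Ligands are named here as the pathway's inputs, outside the rule for named genes. Shh had at most 8.0 counts and Ihh at most 17.0 counts in any library, the latter in null OB. Dhh was found in OB, at 2.02 ± 0.693 TPM in WT and 3.16 ± 1.12 in null (SD, n = 6; log2 fold change of counts 0.46, SE 0.27, adjusted p 0.209, edgeR), and had at most 1.0 count elsewhere. Of this list 6 were tested in OB, and 2 were higher, against 15.5% of all genes. Scube3, of a family that helps to release ligand from the cell, had 0.437, 0.485 and 0.737 CPM in WT OB. In null OB it had 0.856, 1.36 and 2.49 CPM, higher by 1.46 (SE 0.29, adjusted p 0.00138, edgeR) and by 1.17 with the offset. Scube3 passed the filter on low counts through the null libraries, so its direction was favoured by the filter and is given as a description. Hhat, the enzyme that attaches palmitate to the ligands, was higher by 0.28 (SE 0.09, adjusted p 0.0255; 0.28 with the offset). In BMM Disp1, the transporter that exports ligand, was lower by -0.48 on the log2 scale (SE 0.15, adjusted p 0.0125).

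Co-receptors and glypicans made up the reception list of 9 genes. In WT OB 8 of them exceeded 3 counts in a library, against 5 in WT BMM. The co-receptor Gas1, named as an example of this pattern after its values were seen, was at 33.0 ± 7.37 TPM in WT OB (SD, n = 6) and at 0 counts in all BMM and OC libraries. In OB 6 were tested and 3 were higher, against 15.5% of all genes, and all were glypicans: Gpc6 (0.48, adjusted p 0.00211), Gpc4 (0.31, adjusted p 0.0204) and Gpc1 (edgeR). With the offset Gpc4 was at 0.33 and still past the threshold, and Gpc6 was at 0.23 and not. In BMM 3 were tested, with 2 higher and 0 lower, against 27.0% and 25.4% of all genes, and a median of 2.97. They were Gpc1 and Gpc4, the latter named after its values were seen, which went from at most 3.0 counts in a WT BMM library to between 14 and 38 in null BMM (4.62, SE 0.59, adjusted p 7.84e-06, edgeR). Gpc4 passed the filter in BMM through the null libraries, so its direction there was fixed by the filter and is given as a description. In OC all 3 tested genes of the list were lower, against 33.1% of all genes. Among them the co-receptor Cdon had 1.40, 1.69 and 2.09 CPM in WT OC. In null OC it had 0, 0.252 and 0.800 CPM, without overlap (-2.52, SE 0.51, adjusted p 0.000376, edgeR). Cdon passed the filter in OC through the WT libraries, so its direction was likewise fixed by the filter.

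The 21 genes that carry the signal between Smo and Gli were all tested in OB, where 4 were higher and 1 lower, against 15.5% and 16.9% of all genes (edgeR). With the offset 0 were higher and 3 lower, against 6.75% and 8.12%. Gsk3b, a kinase that marks Gli proteins for processing, went from 146, 152 and 156 CPM in WT OB to 183, 204 and 223 CPM in null OB (0.42, SE 0.06, adjusted p 0.000112; 0.05 with the offset). The ciliary receptor Gpr161, a brake on the pathway, was higher by 0.90 (adjusted p 0.0107), Tulp3, which carries Gpr161 into cilia, by 0.26 (adjusted p 0.0302), and Mosmo, which dampens Smo, by 0.34 (adjusted p 0.0370). Arrb2, a β-arrestin, was lower in null OB (-0.45, SE 0.07, adjusted p 0.00033; -0.33 with the offset, still past the threshold) and in OC it was 1.72 higher in null (SE 0.08, adjusted p 1.63e-11). In OC 10 of 17 tested were higher and 1 lower, against 32.4% and 33.1% of all genes. Grk2, a kinase that phosphorylates Smo, was higher in OC by 1.10 (adjusted p 6.65e-10), and Csnk1a1, casein kinase 1 alpha, was lower by -0.54 (adjusted p 6.03e-07). In BMM 5 of 18 were higher and 6 lower, against 27.0% and 25.4%. Prkacb, a catalytic subunit of protein kinase A, dropped from 357, 377 and 419 CPM in WT BMM to 146, 155 and 186 CPM in null BMM (-1.25, SE 0.07, adjusted p 4.02e-10), and Iqce was lower by -0.68 (adjusted p 4.04e-05). Spop, which directs Gli proteins to degradation, and Grk2 were each higher in null BMM by 0.48.

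Of 18 genes reported elsewhere as Hedgehog targets, beside Gli1, Ptch1 and Hhip, 16 exceeded 3 counts in a WT OB library and 10 did so in WT BMM and in WT OC. In OB 14 were tested, 2 were higher and 2 lower, with a median of -0.07 (edgeR), shares near the 15.5% and 16.9% of all genes. Higher were Foxl1 (1.11, SE 0.30, adjusted p 0.0100, edgeR) and the cyclin gene Ccnd2 (0.44, SE 0.14, adjusted p 0.0282). With the offset Foxl1 was at 1.09, and Ccnd2 was at 0.19 and not past the threshold. Foxl1 had 0.2455, 0.738 and 1.22 CPM in WT OB and 1.05, 1.63 and 1.90 CPM in null OB. It passed the filter through the null libraries, so its direction was favoured by the filter and is given as a description. Lower were the forkhead gene Foxf1 (-1.67, SE 0.32, adjusted p 0.00112, edgeR) and Mycn (-1.51, SE 0.46, adjusted p 0.0209). Foxf1 had 1.12, 1.49 and 2.34 CPM in WT OB and 0.160, 0.548 and 0.830 CPM in null OB, without overlap. Because Foxf1 passed the filter through the WT libraries, its direction was favoured by the filter and is given as a description. In OC 4 of 5 tested were higher, against 32.4% of all genes, among them Ccnd2 (4.32, SE 0.20, adjusted p 7.18e-12) and Ccnd1 (1.05, SE 0.06, adjusted p 3.09e-10), which both drive the cell cycle. In BMM 2 of 6 were higher, against 27.0%, of which Bcl2, an inhibitor of cell death, changed by 0.66 (adjusted p 0.0104).

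The 30 genes of the primary cilium list exceeded 3 counts in some library of every group. In OB 5 were higher, a share near the 15.5% of all genes, and 2 were lower, against 16.9% (edgeR). With the length and GC offset 0 passed in either direction. Dync2h1, the motor of retrograde ciliary transport, was higher in null OB by 0.78 (SE 0.14, adjusted p 0.000625; 0.28 with the offset) and lower in null OC by -1.16 (SE 0.17, adjusted p 1.69e-05). Ttbk2, a kinase that starts cilium assembly, was higher in OB by 0.74 (adjusted p 0.00126), and Ift80 and Ift140, of the transport particles, by 0.37 and 0.30. Ift52 and Ift46 were lower in OB by -0.22 and -0.18. In BMM 3 were higher and 9 lower, against 27.0% and 25.4% of all genes. Kif3a, a motor of anterograde transport, had 91.3, 142 and 174 CPM in WT BMM and 56.6, 64.7 and 75.0 CPM in null BMM (-1.07, SE 0.13, adjusted p 4.75e-06), and Ift140 was lower by -1.04 (adjusted p 3.88e-07). Ift57 and Ofd1 were higher in null BMM by 1.38 and 0.52. In OC 13 were higher and 6 lower, against 32.4% and 33.1% of all genes. Kif3a was higher there by 1.10 (SE 0.10, adjusted p 4.29e-08). Ift27 was also higher in null OC, by 0.90, and Bbs9, a part of the complex that moves cargo in cilia, was lower by -1.32 (adjusted p 9.96e-07).

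Over the 12 OB libraries, as deviations from the group mean of log2 CPM, the genes most like Ptch1 were Trak1 (Pearson r 0.94), Aldh1l1 (0.94) and Washc2 (0.87), among 10723 genes with a mean of at least 5 CPM. The r of Ptch1 with the other detected members was between 0.04 (Sufu) and 0.36 (Smo). For Gli1, whose counts were sparse, the 3 most like were Zdhhc24 (0.88), Dpp7 (0.84) and Pptc7 (0.83). These are descriptions over 12 libraries that share depth and scaling.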

How the data were processed

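Total RNA of 36 mouse libraries was quantified by the authors per transcript. Per the file headers, each deposited table lists estimated counts and TPM beside the length and effective length of a transcript. The submitters' processing notes name kallisto, DESeq2 and the build GRCh38, without versions or roles; the identifiers are mouse transcripts, so the build used is uncertain. Of 88198 transcripts, 97.5% matched GENCODE M21 (GRCm38), and the rest, with 0.629% to 0.974% of a library's counts, were left out. Of the matched transcripts 88.9% had the length annotated there, so some quantified models differed from those searched for sites. The main Hhip transcript was quantified at 4582 bases, while its annotated 3′ UTR alone has 6480.

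Counts were summed per gene, rounded, filtered with filterByExpr, scaled by TMM and tested with the robust quasi-likelihood test of edgeR 4.0.16 (R 4.3.3), with Benjamini-Hochberg adjustment over all genes tested and a threshold of 0.05. Genotype comparisons used the 12 libraries of a cell type; contrasts between cell types and interactions used a mean for each group over 36 libraries. The SE was derived from the F statistic. CPM is on the scaling of all 36 libraries. Alternatives were RLE scaling, DESeq2 1.42.0, limma 3.58.1 (voom with quality weights, and log2(TPM + 0.1)), 2 other filters (none, or a mean count of 10 or more), the replicate number as a block, offsets for average transcript length and for length with GC content (lowess span 0.3), a fit of all 36 libraries, and leaving out each library. Leaving out null OC replicates 2 and 6 in the interactions was chosen after seeing the data. The steps were tested on simulated data.

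The members and lists were chosen with earlier results of these data known. Some genes of these lists are not reported here and were left out of their counts. Otherwise, named were all members and reported targets, and from each list up to 4 genes per direction in OB and up to 2 in BMM and OC by smallest p, if past the threshold and at 1 CPM or more on average. Likeness ranked genes with a mean of at least 5 CPM on log2 CPM (prior count 2). The closest pair of libraries of a group differed by a chi-square of 3.34 per gene, above sampling noise, so none was counted as a copy. The labels give no batch, and any batch that went with a group cannot be told apart from it.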

Additional observations from a re-analysis of the deposited data

Results flagged for a closer look

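Among 41 sets of 6 libraries, 4 had a library set apart from the other 5 by Dixon's 95% criterion, which chance meets in about 1 set in 20. Gli1 stood at 1.19 CPM in WT BMM replicate 2, where the next library had 0.620. Gli1 also stood at 0.682 CPM in null OB replicate 3, where the next had 0.214. Gli3 stood at 1.50 CPM in null OC replicate 6, where the next had 0.200. Gpc1 was lowest at 82.9 CPM in null OB replicate 3, where the next had 94.4.

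The genotype effect differed between cell types (edgeR interaction over 36 libraries, adjusted p under 0.05) for Ptch1, Sufu, Smo, Gpc1 and Runx2. For Ptch1 the difference was 1.02 for OB minus BMM (adjusted p 0.0279) and 1.73 for OB minus OC (adjusted p 0.000128). For Sufu it was 0.93 for OB minus BMM (adjusted p 0.00013) and 0.56 for OC minus BMM (adjusted p 0.0158). For Smo it was -2.88 for OB minus OC (adjusted p 0.0235) and 3.81 for OC minus BMM (adjusted p 0.0272), and neither passed without null OC replicate 2. For Gpc1 it was -2.72 for OB minus BMM, 0.99 for OB minus OC and -3.70 for OC minus BMM. For Runx2 it was 0.80 for OB minus OC (adjusted p 0.000494) and -0.72 for OC minus BMM (adjusted p 0.00491).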

How the results depend on the processing

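The count of genes past the threshold in OB was 4420, and it was 2023 with the length and GC offset and 1758 with that offset and the replicate block. The Hedgehog pathway genes called in OB numbered 18, with 10 under the offset, 9 under the offset with the block and 10 in the fit of all 36 libraries, and between 12 and 18 when 1 library was left out. The other 63 counts under other settings, and the 54 without 1 library, stayed within 1.5 times their main value. On log2(TPM + 0.1) the median of all genes moved by -0.15 in BMM, -0.25 in OC and 0.17 in OB, and the calls split into 2016 higher and 4090 lower in BMM, 2565 and 5418 in OC, and 4047 and 949 in OB, against 3217 and 3024, 3928 and 4018, and 2115 and 2305 by counts.

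Signs turned under the length and GC offset for Smo in OB (-0.053, and -0.057 with the block), for Ptch1 between OB and OC in WT (0.086), for the Runx2 interaction of OB minus BMM (-0.335) and for the Gli1 interaction of OC minus BMM (-0.18), none of them past the threshold in either fit. Without null OC replicate 2 or 6 the Gli1 interaction ranged from -0.0039 to 0.183. Without 1 library, Ptch1 in BMM ranged from -0.482 to 0.043 and Sufu in OC from -0.117 to 0.059. The cause of these turns was not tested. Of the other single-gene values, 284 kept their direction and their side of the threshold under other settings, 27 lost the call and 1 gained it.

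Replicate numbers are shared by the groups, but same-numbered libraries of null and WT did not deviate together. A correlation over 0.1 was found in 0 of 6 pairs of null and WT in BMM, in 0 pairs in OC and in 2 pairs in OB. No library correlated best with its own number there. Between BMM and OC, 1 of 6 pairs was over 0.1 in WT and 1 of 6 in null. There 2 WT libraries and 1 null library correlated best with their own number. With the replicate number as a block, 5645 genes passed in BMM, 7556 in OC and 4085 in OB, and among members and targets the Runx2 call in BMM was lost (0.48, adjusted p 0.0773) and no other. Depth limits Gli1, Hhip and Kcnd2 in all groups and Gli2, Gli3 and Smo outside OB.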
